A study of Mus musculus with 4 samples.

Results

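The cytochrome P450 genes of the mouse kidney were followed from the normal to the ischemic kidney, section by section and zone by zone. The members were all genes whose symbol consists of Cyp, a family number, a subfamily letter and a gene number. Of the 32285 genes in the count matrices, 94 had such a symbol. Of these, 39 held at least 50 counts over the 4 sections, the minimum for a gene to be described with values, and all 39 are protein-coding genes. The remaining 55 fell below it: 27 had no count and 28 had between 1 and 34 counts. The lowest total above the minimum was 59 counts. A further 7 symbols begin with Cyp and a digit but do not have this form, among them Cyp51 and Cyp4a12a, and they were not members.

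Spatial transcriptomes were measured with the Visium platform, in which a frozen tissue section lies on an array of barcoded spots and the polyadenylated RNA below each spot is captured. The normal group was 2 sections of the left kidney of untreated male wild-type C57BL/6J mice aged 7 to 8 weeks. The ischemic group was 2 sections of the left kidney of mice of the same sex, strain and age, in which both renal pedicles had been clamped for 30 min under sodium pentobarbital anesthesia (75 mg/kg), with the kidney taken 24 h later. All sections were 10 µm thick and lay on the capture areas of 1 slide. The normal kidneys are not described as sham-operated, so surgery with anesthesia and ischemia cannot be told apart. The labels do not tie sections to mice, and the methods describe technical replicates from each mouse. Both sections of a condition may therefore come from the same mouse, in which case p-values measure only the spread between sections.

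Cytochrome P450 enzymes are heme proteins that insert an oxygen atom into lipids, sterols and foreign compounds, with electrons passed on by P450 oxidoreductase in the endoplasmic reticulum or by ferredoxin in mitochondria. The families differ in what they oxidise. CYP4 enzymes hydroxylate the end of fatty acid chains, CYP2C and CYP2J enzymes form epoxides from arachidonic acid, families CYP1 to CYP3 handle many drugs and toxins, and other families act on sterols, vitamin D or retinoic acid. In the kidney the proximal tubule is the main site of most of them, and its straight last segment in the outer stripe of the outer medulla is the part most sensitive to ischemia.

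The sections held 25957128 to 44528078 unique molecular identifiers (UMIs, each standing for 1 captured RNA molecule) over 2401 to 2682 tissue spots, and median UMIs per spot ranged from 8656 to 16162. Normal sections held 193326 and 111886 UMIs of P450 members, ischemic sections 56734 and 44342. Counts were summed per section, or per section and zone, and are given as CPM, counts scaled to a library of fixed size, after TMM normalization between libraries. A UMI marks 1 molecule at its 3′ end, so CPM was not divided by gene length. Each spot was assigned to cortex, outer stripe, inner stripe, inner medulla or pelvis from marker genes, and Cyp7b1, an outer stripe gene, was kept out of the markers because it is a member. All 6 cortex, all 4 outer stripe, all 4 inner stripe and 5 of 6 pelvis markers were themselves lower in ischemic sections, while of the 5 inner medulla markers 1 was lower and 2 were higher (Slc14a2 6.64-fold and Cryab 3.43-fold), so a zone of an ischemic section rests on the relative order of its spots. Within the inner medulla zone 4 of its markers were lower and 1 was higher. In ischemic sections these markers summed to 3831 and 3484 CPM in inner medulla and 6205 and 6276 CPM in outer stripe. In normal sections they summed to 10037 and 8570 against 1343 and 1163 CPM. The inner medulla label of ischemic spots is therefore uncertain. Of normal spots 5.16% and 8.46% were inner medulla, against 13.0% and 11.9% of ischemic spots. For the cortex the shares were 44.7% and 42.8% against 37.9% and 35.1%. The part of this shift in the zone results was not tested. In spot sums, fewer cells of a type and less RNA per cell cannot be told apart. Ischemic sections held injured tubule: Havcr1 was at 1.17 and 2.14 CPM in normal and 1288 and 1280 CPM in ischemic sections.

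Of the 39 P450 genes, 22 were lower and 11 were higher in ischemic than in normal sections (edgeR's quasi-likelihood test, adjusted p under 0.05), and 6 passed in neither direction. The lower genes made up 56.4% of the members, against 29.7% of all genes tested called lower. The higher genes made up 28.2%, against 31% of all genes tested called higher. The median log2 fold change was -0.70 over the members and 0.04 over the 15305 genes tested. Without the TMM factors the median over all genes was 0.31, and the members then split into 19 lower and 13 higher: Cyp2j6, Cyp2u1 and Cyp39a1 lost their lower calls, and Cyp4a10 and Cyp2d22 passed as higher. Values of the normal and the ischemic sections did not overlap for 37 of the 39 genes, and for 82.2% of all genes tested. Members differed more between the normal sections than between the ischemic ones: the SD over members of the log2 difference between the sections of a condition was 0.43 in normal and 0.25 in ischemic sections, the latter over the 38 genes with counts in both.

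The summed level of all members was 5240 and 4054 CPM in normal kidneys against 1670 and 1548 CPM after ischemia, a mean 2.89 times as high in normal kidneys. The ischemic sections lay close together and far below both normal sections. In normal sections 5 genes, led by Cyp4b1, held 75.7% to 76.5% of the member UMIs. The make-up of the pool differed as well. Cyp4b1 made up 41.0% and 41.5% of member UMIs in normal sections and 25.5% and 26.7% in ischemic sections. Cyp2a5 made up 0.687% and 0.660% in normal sections and 13.9% and 12.2% in ischemic sections. Cyp24a1 went from shares of 0.313% and 0.475% to shares of 6.63% and 7.50%.

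**Figure D1:**
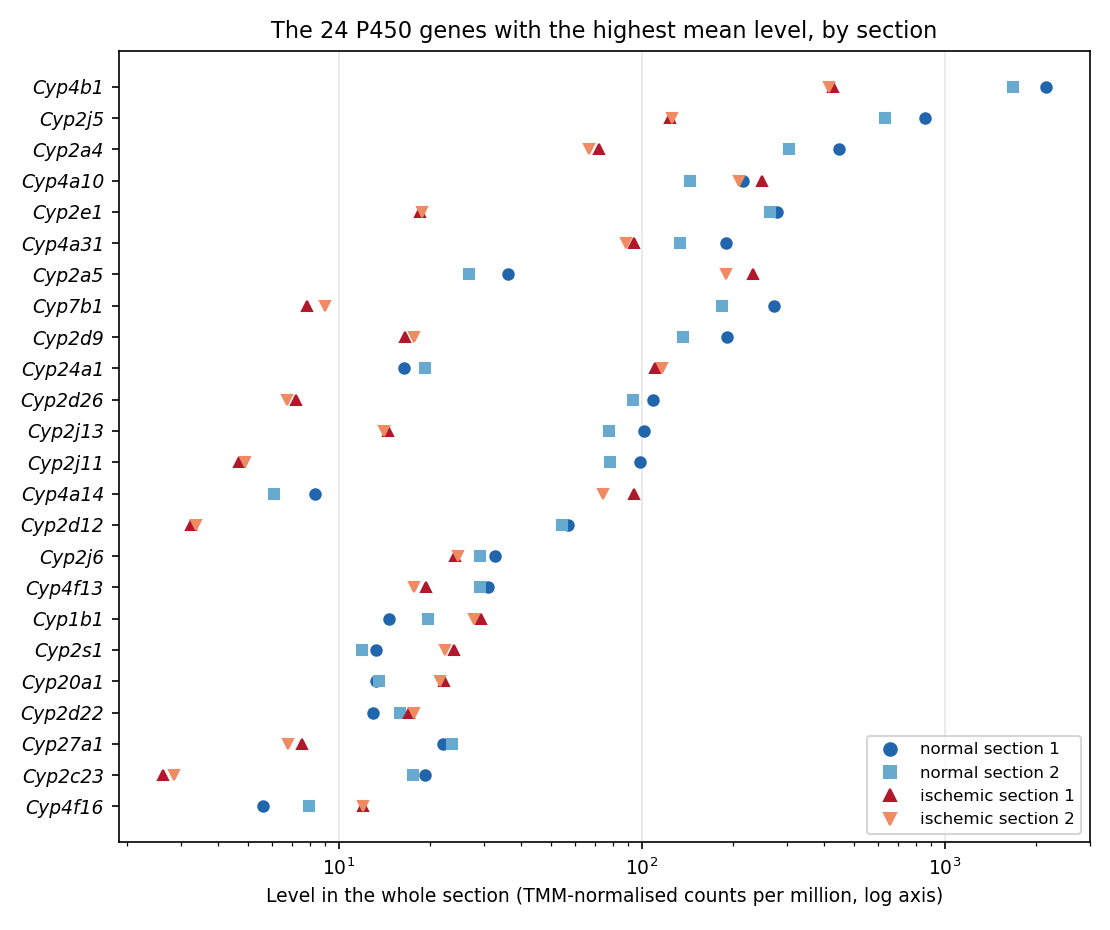
Level of the 24 P450 genes with the highest mean in each of the 4 sections, in TMM-normalised CPM on a log axis, with 1 point per section and genes ordered by their mean. The ischemic sections lie far below the normal ones for Cyp2e1 (18.5 and 18.8 against 280 and 264 CPM) and far above them for Cyp2a5 (233 and 189 against 36.0 and 26.8 CPM), while Cyp4a10 overlaps.

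Among the 11 reported CYP4 genes, the fatty acid omega-hydroxylases, 5 were lower and 5 were higher. Cyp4b1, which oxidises fatty acids and activates some protoxins, was at 2147 and 1681 CPM in normal sections and at 426 and 413 CPM in ischemic sections. It was 4.56-fold lower (log2 fold change -2.19 ± 0.18 SE, adjusted p = 1.0e-05), the lead gene of the pool in every section. Cyp4a14, a fatty acid hydroxylase known as a target of the lipid-sensing receptor PPARα, was at 8.32 and 6.09 CPM in normal sections and at 94.4 and 74.2 CPM in ischemic sections. It was 11.6-fold higher (log2 fold change 3.54 ± 0.17, adjusted p = 5.3e-07), and no ischemic section came near a normal one. Over whole sections with TMM scaling, its neighbouring members on chromosome 4, Cyp4a10 and Cyp4a31, did not follow it. Cyp4a10 stood at 216 and 143 CPM in normal and 249 and 209 CPM in ischemic sections, with overlap between the conditions and no call (log2 fold change 0.35 ± 0.19, adjusted p = 0.136). Cyp4a10 did pass, as higher, without normal section 1 (log2 fold change 0.69) and with library size as the only scaling (0.64). Cyp4a31 was lower, at 189 and 133 against 93.9 and 88.8 CPM (1.76-fold, adjusted p = 0.0020).

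The Cyp4f genes, whose products include enzymes that end the action of leukotrienes, went in both directions. Cyp4f15 held 52 and 69 UMIs in normal sections and 1 and 0 UMIs in ischemic sections, a ratio of CPM of 95.6 with a counting interval of 16.8 to 3805. Cyp4f14 held 67 and 38 against 5 and 4 UMIs and was 10.9-fold lower (adjusted p = 8.0e-05). Cyp4f13 was 1.62-fold lower. In contrast, Cyp4f16 was at 5.61 and 7.97 CPM in normal and 12.0 and 12.0 CPM in ischemic sections, 1.78-fold higher (adjusted p = 0.0022). Cyp4f18, which oxidises leukotriene B in mouse neutrophils, was at 0.596 and 0.906 against 2.00 and 2.02 CPM, 2.72-fold higher (adjusted p = 0.0023). The 5 neutrophil markers summed to 1.68 and 2.07 CPM in normal and 161 and 160 CPM in ischemic sections, 4 of the 5 being higher and Ly6g, at most 0.140 CPM, not tested. The part of neutrophils in the Cyp4f18 result was not tested. Cyp4v3 and Cyp4f17 were 1.42-fold and 1.49-fold higher (adjusted p = 0.018 and 0.042). Both lost their call with DESeq2 and without either ischemic section. Cyp4f17 also lost it without normal section 1 and without the spots that hold adipocyte counts and their neighbours.

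All 6 reported genes of the CYP2C and CYP2J families, the arachidonic acid epoxygenases, were lower, a call that for Cyp2j6 was lost with library size as the only scaling. Cyp2j5, a major epoxygenase of mouse kidney, was at 861 and 635 CPM in normal and 123 and 125 CPM in ischemic sections, 6.02-fold lower (log2 fold change -2.59 ± 0.18, adjusted p = 3.1e-06). Cyp2j11 was at 98.7 and 78.5 against 4.68 and 4.89 CPM, 18.5-fold lower (adjusted p = 1.2e-07). Cyp2j13 was 6.27-fold lower and Cyp2j9 2.58-fold lower. The epoxygenase Cyp2c23 was at 19.2 and 17.5 against 2.62 and 2.86 CPM, 6.71-fold lower (adjusted p = 5.4e-07). Cyp2j6 moved least, from 32.6 and 29.2 to 24.2 and 24.8 CPM (1.26-fold, adjusted p = 0.014). Scaled by library size alone Cyp2j6 was at 27.0 and 29.1 against 26.5 and 27.4 CPM, which overlap (edgeR, adjusted p = 0.725), and its call was also lost without either ischemic section. The 5 Cyp2j genes are neighbours on chromosome 4 (GRCm38, chr4:96027534-96664154), and all 5 were lower with TMM scaling.

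Among the 12 reported genes of the xenobiotic families, 7 were lower and 3 were higher. Cyp2e1, the enzyme that oxidises ethanol and many small solvents, was at 280 and 264 CPM in normal and 18.5 and 18.8 CPM in ischemic sections, 14.6-fold lower (log2 fold change -3.87 ± 0.13, adjusted p = 9.7e-08). Of the Cyp2d genes on chromosome 15 (chr15:82370527-82794294), the counterparts of human debrisoquine hydroxylase, 3 of 4 were lower. Cyp2d12 was at 57.1 and 54.6 against 3.24 and 3.39 CPM (16.9-fold lower, adjusted p = 5.2e-08). Cyp2d26 was 14.4-fold lower and Cyp2d9 was 9.59-fold lower. Cyp2d22, in the same cluster, was at 13.0 and 15.9 against 17.0 and 17.6 CPM and was not called (adjusted p = 0.079). Cyp1a1 and Cyp2f2 were 4.04-fold and 5.54-fold lower, Cyp2f2 from 130 and 67 UMIs to 24 and 10 UMIs. Cyp1b1, which hydroxylates estrogens and polycyclic compounds, was higher, at 14.6 and 19.6 against 29.5 and 27.8 CPM (1.68-fold, adjusted p = 0.0012). Cyp3a13 was 3.35-fold higher on few counts, 12 and 9 against 39 and 30 UMIs. Cyp2b10, with 25 and 7 against 14 and 13 UMIs, overlapped between conditions.

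The Cyp2a genes of this group went in opposite directions. Cyp2a4, a steroid hydroxylase, was at 448 and 305 CPM in normal and 72.0 and 66.8 CPM in ischemic sections, 5.42-fold lower (log2 fold change -2.44 ± 0.19, adjusted p = 6.5e-06). Cyp2a5, a coumarin and nicotine hydroxylase, was at 36.0 and 26.8 CPM in normal and 233 and 189 CPM in ischemic sections, 6.71-fold higher (log2 fold change 2.75 ± 0.17, adjusted p = 2.0e-06). In both normal sections Cyp2a4 was the higher of the pair, and in both ischemic sections Cyp2a5 was. The genes lie on chromosome 7 of GRCm38, at chr7:26307169-26315088 and chr7:26835305-26843548, on the same strand. The start regions of the pair are shown because so little of their letters differs while the RNAs moved in opposite directions. The RefSeq promoter windows (GRCm38.p6, plus strand, 250 bases before to 50 after the annotated start) were chr7:26306942-26307241 for Cyp2a4 and chr7:26835089-26835388 for Cyp2a5, with capitals marking the bases that differ:
Cyp2a4: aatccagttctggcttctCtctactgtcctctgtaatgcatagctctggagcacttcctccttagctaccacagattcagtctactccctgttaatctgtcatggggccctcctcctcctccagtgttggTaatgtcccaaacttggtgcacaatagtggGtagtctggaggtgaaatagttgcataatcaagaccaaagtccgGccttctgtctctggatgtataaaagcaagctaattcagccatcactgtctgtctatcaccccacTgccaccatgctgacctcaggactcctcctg
Cyp2a5: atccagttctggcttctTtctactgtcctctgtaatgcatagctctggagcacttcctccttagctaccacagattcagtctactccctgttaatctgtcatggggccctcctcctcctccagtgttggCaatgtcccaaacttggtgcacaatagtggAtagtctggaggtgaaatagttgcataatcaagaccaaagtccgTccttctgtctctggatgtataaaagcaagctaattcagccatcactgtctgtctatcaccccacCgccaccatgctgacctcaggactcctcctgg
The windows are offset by 1 base, and 294 of the 299 aligned bases were the same (98.3%). Counted from the first base of the Cyp2a4 window, the 5 differences from Cyp2a4 to Cyp2a5 were C19T, T131C, G161A, G205T and T270C, the last one just past the start. The nuclear receptor motif AGGTCA, searched on both strands, occurred in the windows of Cyp2a4, Cyp2a5, Cyp2f2 and Cyp2j5. These were 14.3% of the 28 reported members with a window, against 16.3% of all 32851 windows. In Cyp2a4 and Cyp2a5 the match was the reverse complement TGACCT, past the annotated start. Direct repeats of AGGTCA with a spacer of 1 or of 3 bases, which contain AGGTCA themselves, occurred in none of the 28. Of all windows, 0.0396% and 0.00609% held them.

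Related genes can exchange counts when their transcript ends are alike. Of the 311 windows of 90 bases in the last 400 bases of the longest Cyp2a4 transcript, 28 also occurred in a transcript of another member, most often of Cyp2a5. For Cyp2d26 and Cyp2d9 the numbers were 25 and 9 windows, both shared most often with Cyp2d22. None of the other 36 reported members had such a window in its own last 400 bases. By identity over the aligned ends, Cyp4a10 and Cyp4a31 were the closest reported pair, at 92.5% with a longest identical run of 41 bases. Cyp2a4 and Cyp2a5 were 49.7% identical with a run of 58 bases. Cyp2d9 and Cyp2d12 were 87.6% identical with a run of 69 bases, and Cyp2d26 and Cyp2d40, which held 2 UMIs in all, were 88.1% identical with a run of 98 bases. The values of Cyp2a4, Cyp2d26 and Cyp2d9, which share windows, are therefore uncertain. So are those of Cyp2a5 and Cyp2d22, whose transcripts hold the shared windows.

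**Figure D2:**
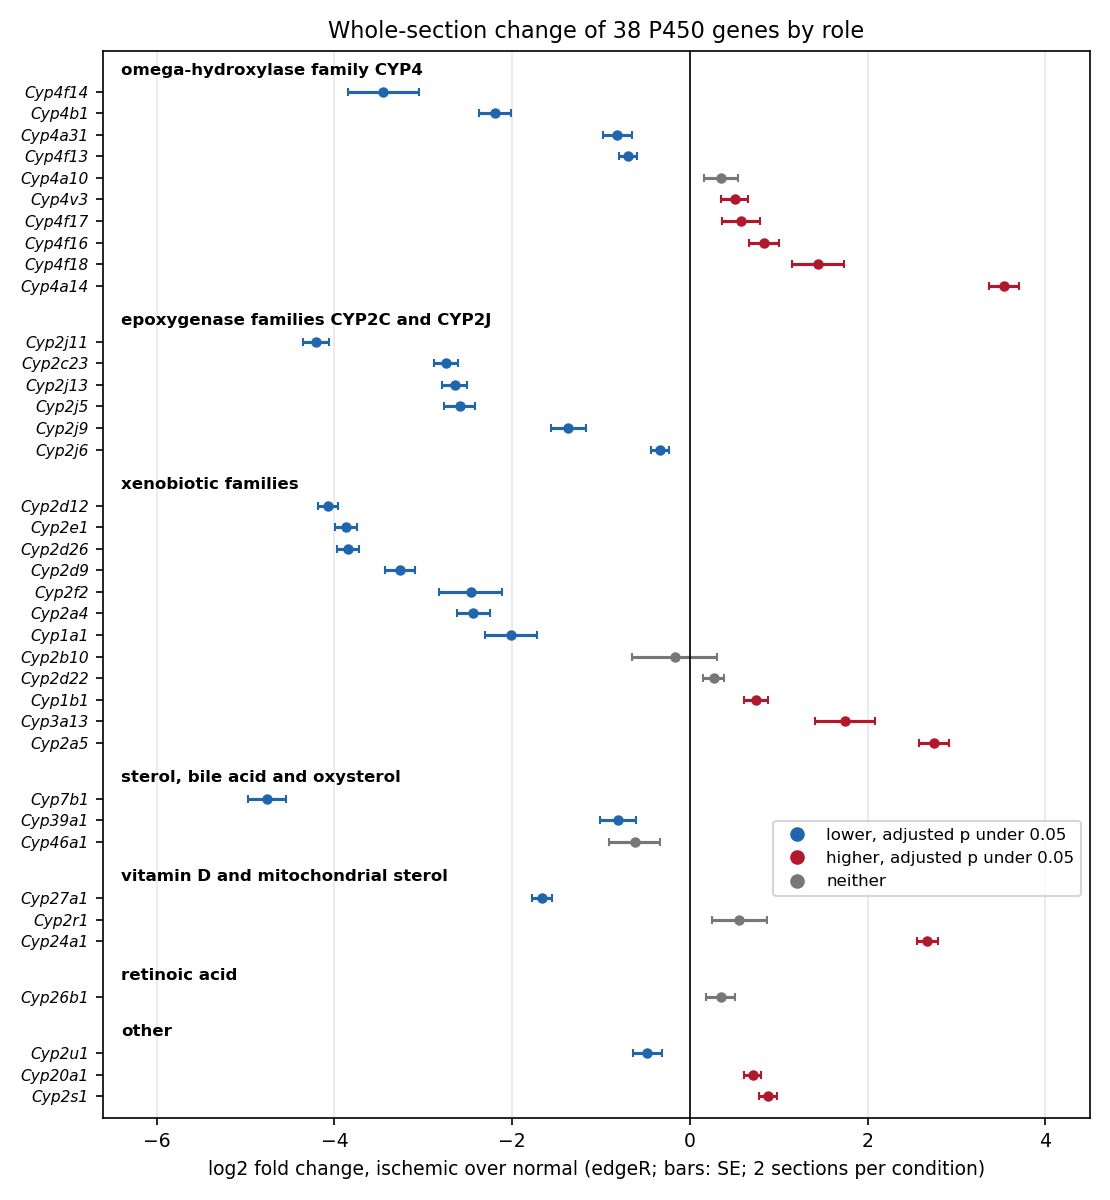
Log2 fold change of ischemic over normal sections for 38 P450 genes by role, from edgeR on 2 sections per condition, with bars for the SE and color for the call; Cyp4f15, with 1 UMI in ischemic sections, is left out. All 6 CYP2C and CYP2J genes lie below 0, while the CYP4 genes spread from -3.45 for Cyp4f14 to 3.54 for Cyp4a14.

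In the sterol group 2 of 3 genes were lower. Cyp7b1, an oxysterol and bile acid hydroxylase, was at 272 and 183 CPM in normal and 7.83 and 8.97 CPM in ischemic sections, 27.1-fold lower (log2 fold change -4.76 ± 0.21, adjusted p = 3.1e-07). Cyp39a1 was 1.75-fold lower (adjusted p = 0.0079), a call lost with library size as the only scaling and without ischemic section 1, and Cyp46a1, a cholesterol hydroxylase known from brain, was at 1.25 and 1.74 against 0.972 and 0.942 CPM with no call.

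Genes of vitamin D metabolism diverged. Cyp24a1, the mitochondrial enzyme that inactivates vitamin D, was at 16.4 and 19.2 CPM in normal and 111 and 116 CPM in ischemic sections, 6.37-fold higher (log2 fold change 2.67 ± 0.12, adjusted p = 2.9e-07). Cyp27a1, a mitochondrial sterol hydroxylase, was at 22.0 and 23.6 against 7.54 and 6.77 CPM, 3.17-fold lower (adjusted p = 2.9e-06). Cyp2r1, which performs the first step of vitamin D activation, was at 1.14 and 0.978 against 1.91 and 1.19 CPM and was not called (adjusted p = 0.150). Cyp27b1, which makes the active hormone, was below the minimum with 2, 6, 10 and 10 UMIs and is named here after its values were seen. The vitamin D receptor gene Vdr was 1.76-fold lower, at 137 and 105 against 72.0 and 65.0 CPM. By zone, Vdr was not called in the cortex (log2 fold change -0.19) and was lower in each other zone.

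Of the other groups, the retinoic acid hydroxylase Cyp26b1 was at 4.69 and 4.96 against 5.77 and 6.49 CPM and was not called. Cyp2s1 and Cyp20a1 were 1.84-fold and 1.63-fold higher (adjusted p = 9.6e-05 and 2.2e-04), and Cyp2u1 was 1.40-fold lower. The call of Cyp2u1 was lost with DESeq2, with library size as the only scaling and without either ischemic section. It was also lost without the spots that hold adipocyte counts and their neighbours. The 6 steroidogenic genes all fell below the minimum. Cyp17a1 held 19 UMIs in all, Cyp11a1 and Cyp21a1 4 each, Cyp11b1 1, and Cyp11b2 and Cyp19a1 none. Of the 5 adrenal cortex markers, Nr5a1 had no count in any section and Mc2r and Hsd3b1 were not tested. Star, a cholesterol transporter of steroid synthesis, was higher, from 15 and 17 UMIs in normal to 255 and 241 UMIs in ischemic sections (15.8-fold, adjusted p = 1.8e-06). Akr1b7, with 115 and 78 against 102 and 96 UMIs, was not called.

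The zones showed where the changes lay. Of the 39 genes, 36 passed the filter on low counts for the zone sums, and Cyp2b10, Cyp3a13 and Cyp4f14 did not. Ischemic and normal were compared by zone with no section term, so the zones of a section counted as separate libraries. The adjusted p-values and calls by zone may therefore look stronger than 2 sections per condition allow. In the cortex 16 of 36 were lower and 9 higher, against 19.8% and 20% of all genes tested. Without either ischemic section the number higher in the cortex was 5. In the outer stripe 20 were lower and 8 higher (29.1% and 27.4% of all genes), in the inner stripe 20 and 5 (26% and 23.1%), in the inner medulla 18 and 5 (21.7% and 14.2%) and in the pelvis 15 and 5 (14.8% and 10.8%). The pelvis count of lower genes was 6 without ischemic section 1 and 8 without ischemic section 2. The number higher in the inner medulla was 1 and 3 without these sections, and 3 without normal section 2. In the inner stripe 3 were higher without ischemic section 2, and in the pelvis 2 to 4 were higher without any 1 section. The summed member level differed least in the cortex and pelvis. In the cortex it was 7183 and 5863 CPM in normal and 3328 and 3274 CPM in ischemic sections, a ratio of 1.98. In the outer stripe it was 5865 and 5234 against 1520 and 1520 CPM, a ratio of 3.65. In the inner stripe it was 3604 and 2128 against 414 and 464 CPM, a ratio of 6.53. In the inner stripe the normal sections also lay far apart.

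Across the 5 zones 12 genes were lower in each: Cyp4b1, Cyp2j5, Cyp2j11, Cyp2j13, Cyp2e1, Cyp2d9, Cyp2d12, Cyp2d26, Cyp7b1, Cyp27a1, Cyp4f13 and Cyp4f15. Of all genes tested, 6.81% were lower in each zone. Without ischemic section 1 or 2 the 12 fell to 5 and 7, and Cyp27a1, Cyp2d26, Cyp2e1 and Cyp7b1 were among them whichever single section was left out. Cyp24a1 and Cyp2s1 were higher in each zone, as were 5.67% of all genes tested. Without either ischemic section no member was higher in each zone (edgeR, 2 members at an unadjusted p under 0.05). Without normal section 1 Cyp24a1 kept this pattern and Cyp2s1 did not, and without normal section 2 neither did. Cyp24a1 in the cortex was at 35.7 and 43.4 CPM in normal and 263 and 296 CPM in ischemic sections, and in the outer stripe at 3.97 and 6.98 against 68.3 and 80.4 CPM. Cyp2e1 in the cortex was at 561 and 535 against 42.2 and 45.8 CPM, and Cyp7b1 in the outer stripe at 634 and 494 against 15.2 and 19.2 CPM (32.9-fold lower, adjusted p = 1.1e-08). Cyp2u1 and Cyp4f17 were called in none of the zones. Cyp4v3 was higher in the inner stripe (2.18-fold, adjusted p = 0.0027) and lower in the pelvis, from 22.1 and 26.9 to 11.1 and 11.8 CPM (adjusted p = 0.014). It was also called higher in the cortex, with an adjusted p of 0.035, but 8 of the alternatives lost that call. Cyp2f2 had 0 UMIs in ischemic inner medulla and pelvis, where normal sections held 20.8 and 1.75 CPM and 25.6 and 8.03 CPM. Adipocyte markers moved with it: they summed to 3939 and 482 CPM in normal inner medulla and 2006 and 633 CPM in normal pelvis, against 0.879 and 1.02 CPM and 1.39 and 0.653 CPM in ischemic sections. Urothelial markers of the pelvis also moved with the pelvis results of Cyp4v3, Cyp2f2 and Cyp4f15. The 6 of them summed to 4968 and 5434 CPM in normal and 657 and 920 CPM in ischemic pelvis. The part of either cell type in these results was not tested.

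**Figure D3:**
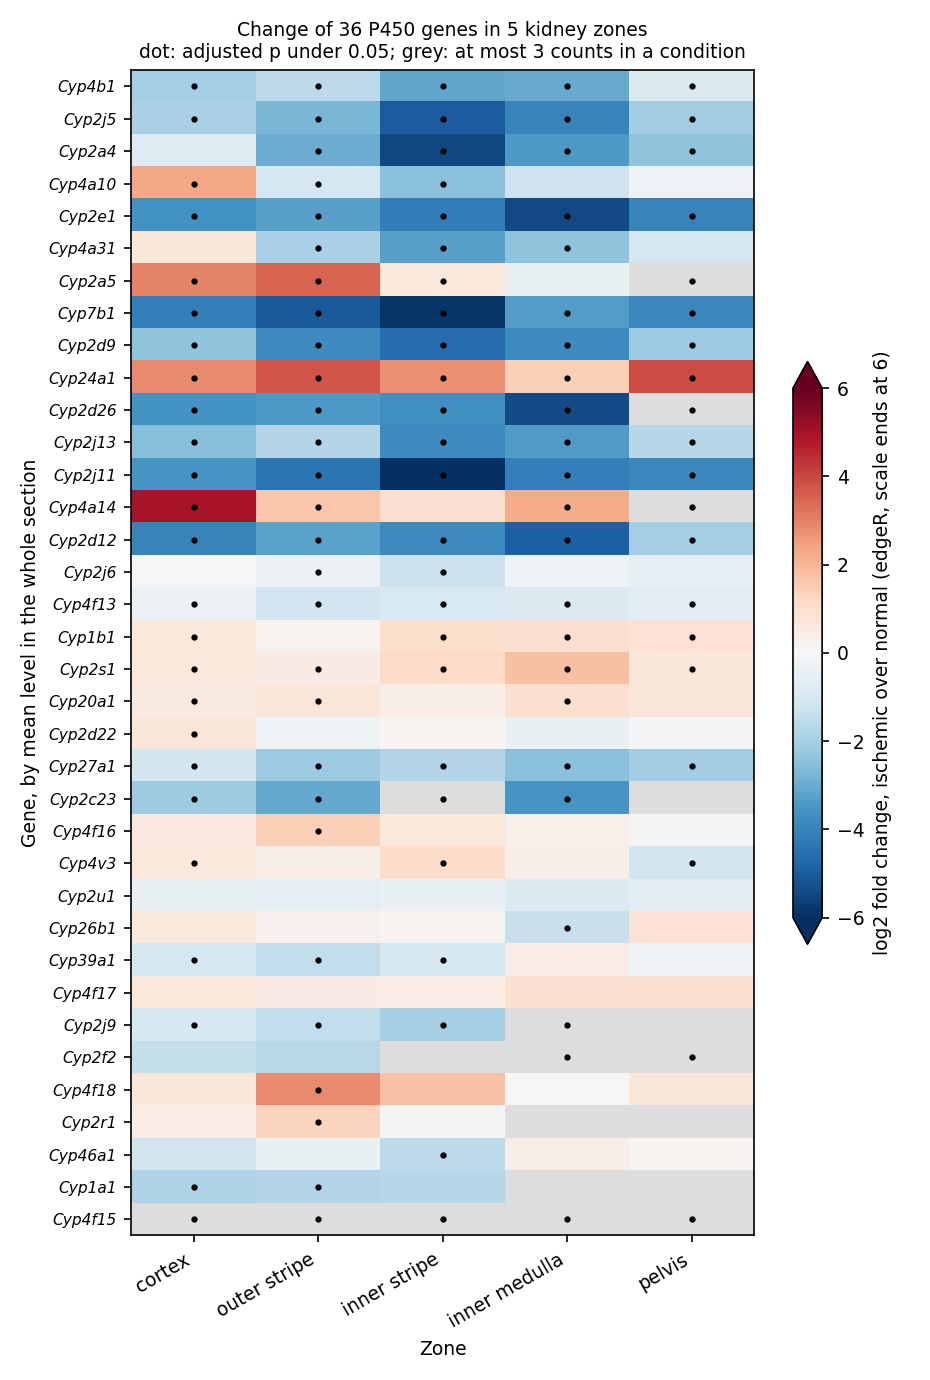
Log2 fold change of ischemic over normal sections of 36 P450 genes (rows, by mean level) in 5 zones (columns), from 1 edgeR model on section and zone sums, with 2 sections per condition. Dots mark adjusted p under 0.05, grey marks at most 3 counts in a condition, and the color scale ends at 6. Cyp4a10 turns from 2.30 in the cortex to -2.53 in the inner stripe.

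Cyp4a10, not called in whole sections, was called in opposite directions by zone. In the cortex it was at 127 and 84.2 CPM in normal and 546 and 499 CPM in ischemic sections, 4.93-fold higher (log2 fold change 2.30 ± 0.42, adjusted p = 2.0e-04). In the outer stripe it was at 451 and 352 against 207 and 186 CPM, 2.04-fold lower (adjusted p = 0.035), a call lost with DESeq2 (adjusted p = 0.067) and without either ischemic section (0.23 and 0.30). In the inner stripe it was at 234 and 87.0 against 26.3 and 29.9 CPM, 5.76-fold lower (adjusted p = 1.2e-04). The conditions did not overlap in any of these zones, and the sign changed between cortex and outer stripe. In the inner stripe, outer stripe markers summed to 2717 and 1105 CPM in normal and 186 and 189 CPM in ischemic sections. Proximal tubule markers there summed to 6890 and 4038 against 313 and 349 CPM. The part of these tubules in the inner stripe result was not tested.

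Cyp4a31 and Cyp4a14 differed between zones as well. Cyp4a31 in the cortex was at 146 and 105 CPM in normal and 197 and 206 CPM in ischemic sections, which was not called (adjusted p = 0.099), and in the outer stripe at 342 and 285 against 83.6 and 80.2 CPM, 3.83-fold lower. Cyp4a14 was 31.1-fold higher in the cortex, at 8.04 and 6.05 against 241 and 205 CPM (adjusted p = 1.3e-11). In the outer stripe it was 3.12-fold higher, at 14.5 and 12.4 against 45.2 and 39.4 CPM. Cyp2a4 showed no call in the cortex, at 216 and 133 against 102 and 104 CPM (adjusted p = 0.182). It was 7.79-fold lower in the outer stripe, at 972 and 800 against 115 and 113 CPM (adjusted p = 2.3e-05). Its relative Cyp2a5 was 7.95-fold higher in the cortex and 11.4-fold higher in the outer stripe, where it rose from 13.0 and 15.6 to 172 and 153 CPM.

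**Figure D4:**
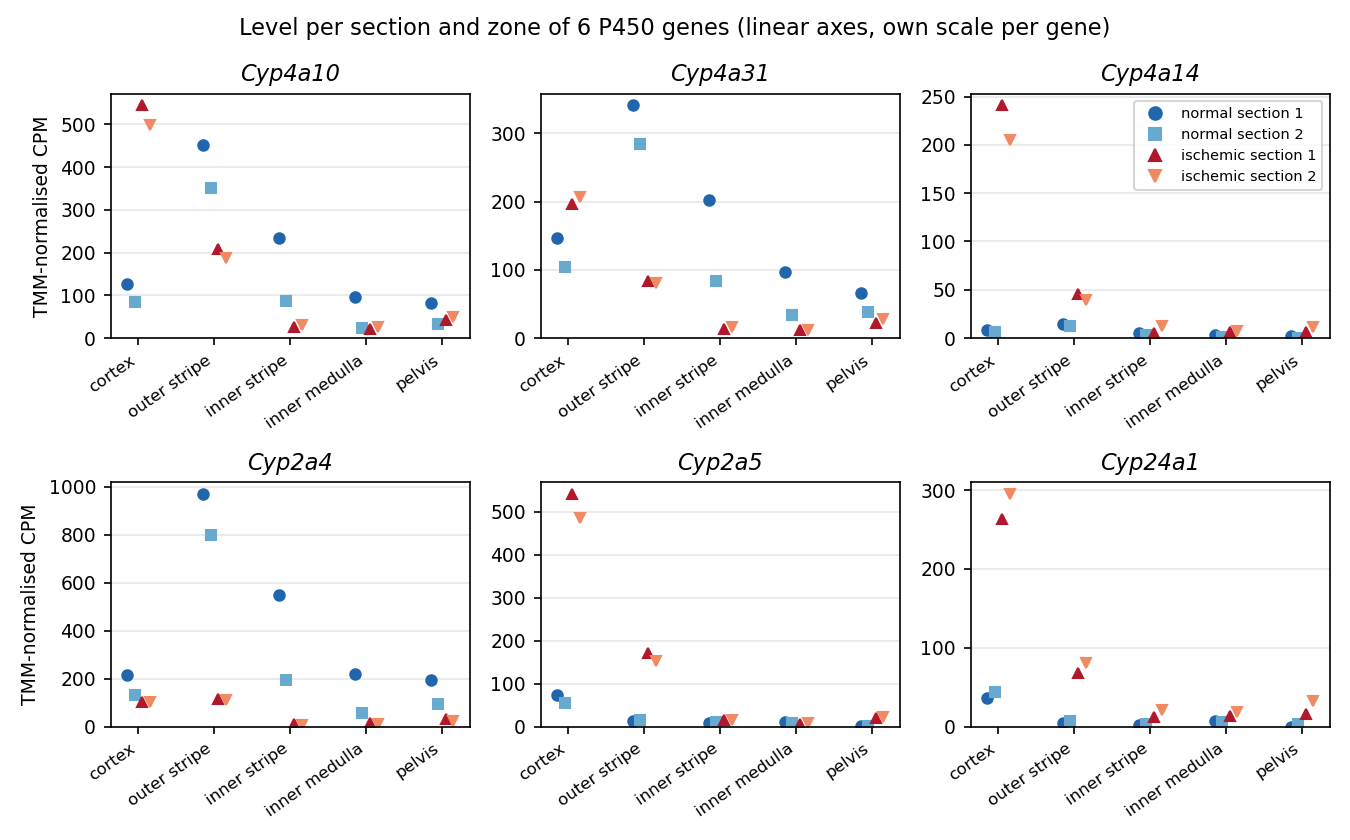
Level of 6 P450 genes in each section and zone, in TMM-normalised CPM on linear axes with a scale of its own for each gene and 1 point per section. Cyp4a10 peaks in the outer stripe of normal sections (451 and 352 CPM) and in the cortex of ischemic sections (546 and 499 CPM), and in the outer stripe Cyp2a4 is lower (115 and 113 against 972 and 800 CPM) while Cyp2a5 is higher (172 and 153 against 13.0 and 15.6 CPM).

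Outer stripe and cortex were compared within sections, with the section as a block. In normal sections 13 of 36 members were lower in the outer stripe and 10 were higher, against 10.2% and 12.5% of all genes. Fewer members were higher with DESeq2 and with no section block, as given under how the results depend on the processing. Cyp7b1 was 14.9-fold higher in the outer stripe (adjusted p = 5.9e-11), Cyp2a4 5.34-fold and Cyp4a10 3.91-fold. Cyp24a1 was 7.39-fold lower there, Cyp2d26 4.66-fold, Cyp2a5 4.54-fold and Cyp2e1 4.33-fold. In ischemic sections 21 were lower in the outer stripe and 2 were higher, Cyp20a1 and Cyp7b1, against 18.3% and 16.9% of all genes. Cyp4a10 was then 2.66-fold lower in the outer stripe than in the cortex, Cyp4a31 2.46-fold and Cyp4a14 5.27-fold, each in the direction opposite to that in normal sections. Without either ischemic section 10 members were lower and 1 was higher.

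The change of this difference between conditions was tested itself. It was lower for 10 of 36 members and higher for 4, against 12.4% and 7.91% of all genes. Without ischemic section 1 it was lower for 4 and higher for 0, without ischemic section 2 lower for 5 and higher for 0 (3 members were higher at an unadjusted p under 0.05 in each case, and DESeq2 on all sections called 2), and without normal section 2 higher for 7. The difference changed most for Cyp4a10 (log2 difference -3.37 ± 0.27 SE, adjusted p = 9.1e-08), Cyp4a14 (-3.33 ± 0.28, adjusted p = 1.2e-07) and Cyp4a31 (-2.64 ± 0.23, adjusted p = 1.8e-07), all neighbours at chr4:115486200-115647723. Cyp4b1, in the same cluster, did not pass (0.46 ± 0.20, adjusted p = 0.120). In the other direction the difference changed for Cyp24a1 (0.97 ± 0.24, adjusted p = 0.0057), Cyp4f16 and Cyp2j13, calls that were lost without either ischemic section. The zone with the highest mean level was the outer stripe for 11 of the 39 genes in normal sections and for 6 in ischemic sections. Of those 11, 7 had their highest mean in the cortex of ischemic sections. The share of all genes with such a shift was not counted, so the shift cannot be called particular to the members. For Cyp4a10, Cyp4a14, Cyp4a31 and Cyp4f13 (adjusted p = 0.0027) the ischemic difference between outer stripe and cortex was called. For Cyp2d9 and Cyp2j5 it was not (adjusted p = 0.227 and 0.105), and Cyp4f14 held only 5 and 4 UMIs in ischemic sections. For Cyp4f13 the difference in normal sections was not called (edgeR, adjusted p = 0.074).

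**Figure D5:**
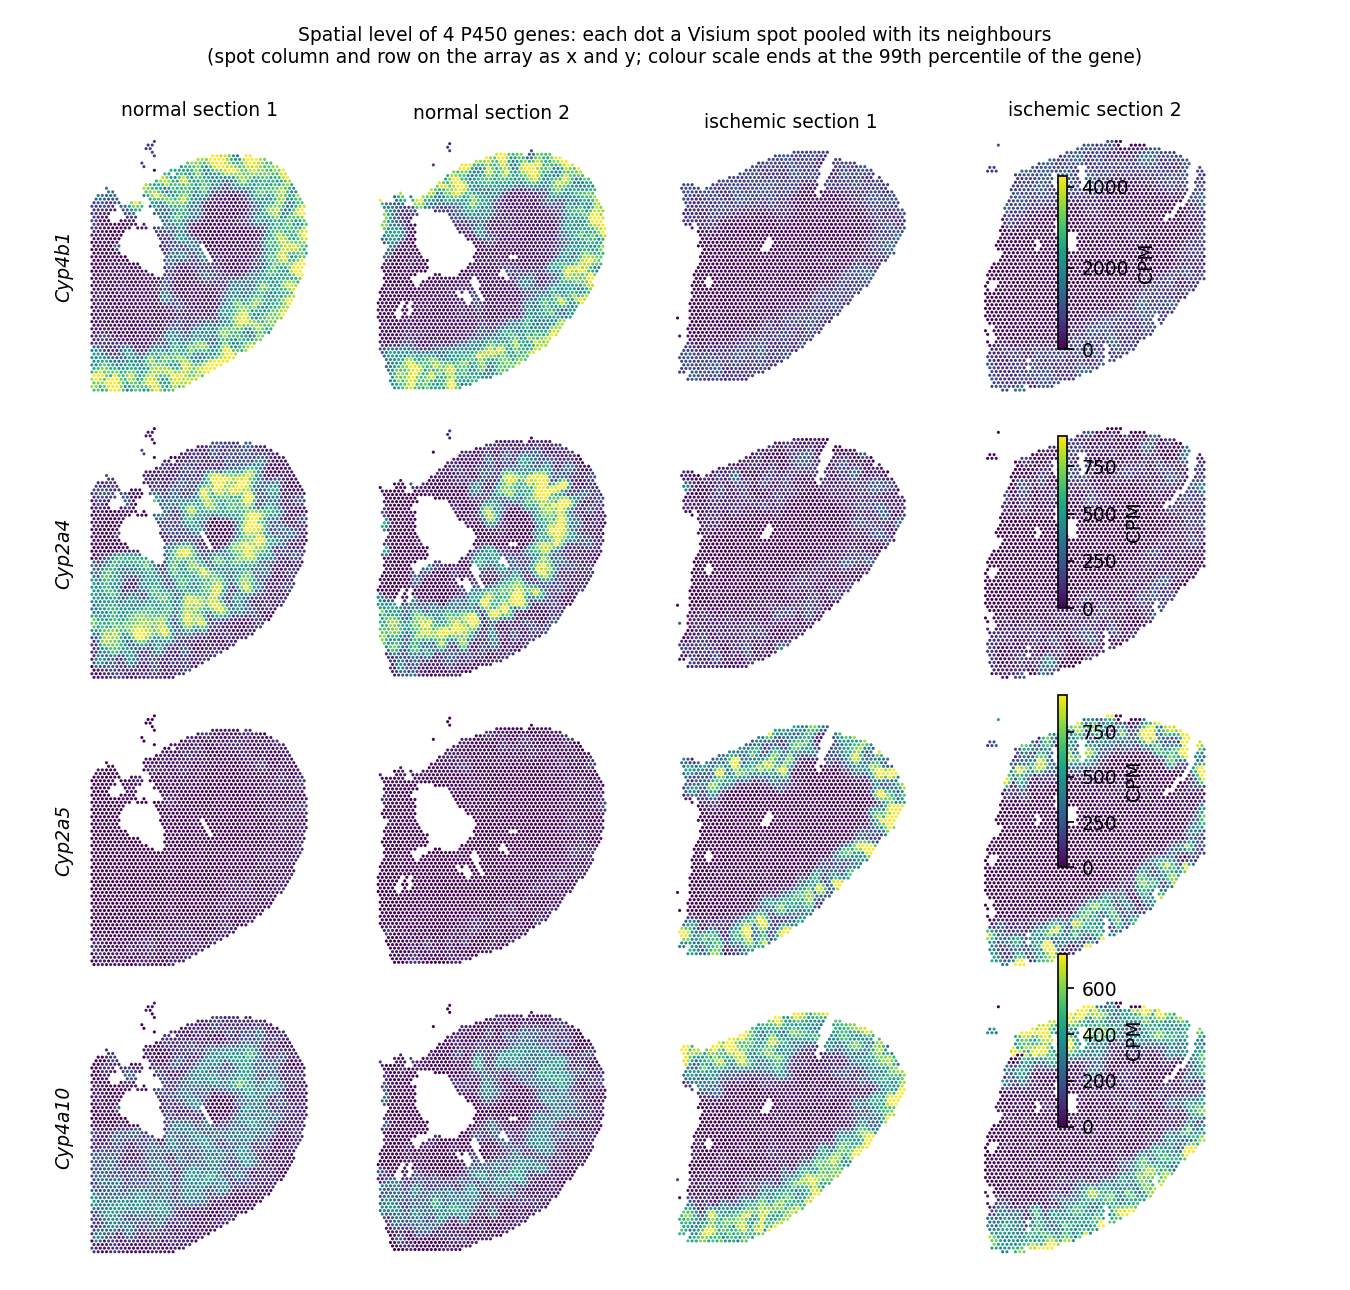
Maps of Cyp4b1, Cyp2a4, Cyp2a5 and Cyp4a10 (rows) in the 4 sections (columns), each dot a Visium spot at its array column and row, colored by CPM of the spot pooled with its up to 6 neighbours, without TMM scaling, on a scale that ends at the gene's 99th percentile. Cyp2a4 forms a band in the outer stripe of normal sections (972 and 800 CPM in the zone sums) that is faint in ischemic sections (115 and 113 CPM), and Cyp2a5 and Cyp4a10 line the cortex of ischemic sections (542 and 485 CPM and 546 and 499 CPM).

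Partners of the P450 enzymes were mostly lower over whole sections. Of 7 electron partners, 6 were lower and 1 was higher. In the cortex 3 of the 7 were lower and 1 was higher. Of all genes tested, 29.7% were lower and 31% higher over whole sections, and 19.8% and 20% in the cortex. Por, the P450 oxidoreductase, was at 209 and 169 CPM in normal and 144 and 152 CPM in ischemic sections, 1.27-fold lower (adjusted p = 0.047). It was not called in the cortex (log2 fold change -0.11). Without the TMM factors the median log2 fold change over all genes tested was 0.31 rather than 0.04. Small falls such as that of Por (-0.35) may therefore depend on the scaling, and no value of these genes under that scaling is given. Cyb5a, cytochrome b5, was at 2717 and 2112 against 960 and 894 CPM, 2.60-fold lower, and the mitochondrial ferredoxin gene Fdx1 was 1.45-fold lower. Cyb5r3, a cytochrome b5 reductase, was 1.42-fold higher. Alas1, the first enzyme of heme synthesis, was higher, at 60.7 and 68.3 against 95.8 and 94.2 CPM (1.47-fold). Both epoxide hydrolases were lower, Ephx2, which hydrolyses the lipid epoxides, from 498 and 367 to 161 and 146 CPM (2.81-fold) and Ephx1 by 1.36-fold. The call of Ephx1 (log2 fold change -0.44) may depend on the scaling as well, and in the cortex Ephx1 was not called (0.21). Of 10 receptors and factors that regulate P450 genes, 5 were lower, 1 (Arnt) was higher, 3 were not called and Nr1i3 was not tested. In the cortex 2 of the 10 were lower and 1 was higher. Hnf4a was at 191 and 168 against 85.4 and 83.0 CPM (2.13-fold lower), while Ppara was at 2.66 and 2.03 against 1.91 and 2.51 CPM, with no call. Hnf4a was not called in the cortex (log2 fold change -0.32) and was lower in the outer stripe (-1.71) and inner stripe (-2.85). Of the 5 related genes with other names, 3 were lower and 1 was higher. Cyp51, the lanosterol demethylase of cholesterol synthesis, was 9.02-fold lower, at 219 and 153 against 19.9 and 21.4 CPM. Cyp4a12a was 1.75-fold lower, while its relative Cyp4a12b was 7.54-fold higher, at 3.71 and 3.26 against 27.1 and 25.8 CPM.

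Markers of several cell types moved with the members, while other lists were mixed. Of 5 macrophage markers 2 were lower and 1 was higher. Of 4 endothelium markers 1 was lower and 2 were higher, and of 4 fibroblast markers 2 were lower and 2 higher. All 10 proximal tubule markers were lower, with a median log2 fold change of -2.21, and they summed to 11857 and 9497 CPM in normal and 2668 and 2507 CPM in ischemic sections, none of them at 0. The 5 adipocyte markers summed to 308 and 122 CPM in normal and 3.86 and 3.46 CPM in ischemic sections. Without the spots that hold adipocyte counts and their neighbours, 21 members were lower and 10 higher, and Cyp4b1, Cyp2e1, Cyp2a5 and Cyp24a1 had log2 fold changes of -2.48, -4.05, 2.45 and 2.42. All 4 hepatocyte markers were lower, summing to 480 and 379 CPM in normal and 60.9 and 67.1 CPM in ischemic sections. Ttr led them, at 333 and 288 against 16.8 and 22.0 CPM, followed by Serpina1a at 120 and 71.5 against 37.2 and 38.7 CPM, while Alb was at most 3.58 CPM. The part of proximal tubule content and of hepatocyte-type RNA in these results was not tested. Hemoglobin genes held 0.887% and 0.903% of UMIs in normal and 0.0763% and 0.161% in ischemic sections.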

How the data were processed

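The 4 Visium kidney sections were used, 2 normal and 2 ischemic, grouped by their labels. The values deposited by the authors are whole-number UMI counts for each gene in each spot over tissue, with no normalization. Per the file headers and the submitters' processing notes, Space Ranger 1.3.0 made them on mm10. Sections, not spots, served as replicates. Spot positions were used for neighbours and maps.

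Counts were summed over the spots of a section, or of a section and zone with at least 20 spots. Zones came from marker lists scored over a spot and its up to 6 neighbours (log2 CPM with a pseudocount of 1, standardised within the section, highest score). Spots with at least 10 pelvis marker counts in the top 5% of the section were pelvis. Sums were fitted across all genes with edgeR 4.0.16 in R 4.3.3 (quasi-likelihood test after TMM normalization and filterByExpr; calls at a Benjamini-Hochberg adjusted p under 0.05). Ischemic and normal were compared within each zone without a section term, and outer stripe and cortex with the section as a block. DESeq2 1.42.0 was an alternative. Promoters were RefSeq's (GRCm38.p6), matched by symbol for 73 of 94 members, aligned with Biopython 1.88. Gene positions and transcripts were GENCODE's for GRCm38. The interval on a ratio of counts is an exact 95% interval and covers counting error only, as does the limit set by low counts.

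Members and lists were chosen with earlier results of these data known. Named genes were the 12 members with the highest mean CPM, the 12 largest falls and up to 12 largest rises (11 were found) called without overlap between conditions, the vitamin D genes, the 3 largest changes of the zone difference each way, and members called in opposite directions. The others are given by role. The procedure was also run on simulated counts that held no zone differences and no section effect, so the run cannot check these parts of the design.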

Additional observations from a re-analysis of the deposited data

Results flagged for a closer look

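The difference between outer stripe and cortex was not the same in ischemic and normal sections for 14 of the 36 members tested, by a test of the change itself (edgeR, adjusted p under 0.05). Of all genes tested, the difference was lower in ischemic sections for 12.4% and higher for 7.91%. On the log2 scale, the outer stripe minus cortex difference was lower in ischemic sections for Cyp4a10 (-3.37, adjusted p = 9.1e-08), Cyp4a14 (-3.33, 1.2e-07), Cyp4a31 (-2.64, 1.8e-07) and Cyp2a4 (-2.27, 2.6e-05). It was also lower for Cyp2d9 (-1.42, adjusted p = 0.0016), Cyp27a1 (-1.07, 0.0028), Cyp2d22 (-1.01, 0.0086) and Cyp2c23 (-0.92, 0.022). Cyp2j5 (-0.81, adjusted p = 0.015) and Cyp4f13 (-0.81, 0.0016) completed the 10 lower genes. It was higher for Cyp24a1 (0.97, adjusted p = 0.0057), Cyp4f16 (0.88, 0.033), Cyp2j13 (0.79, 0.0039) and Cyp2a5 (0.52, 0.042). Cyp4a10, Cyp4a14, Cyp4a31 and Cyp2a4 passed under each alternative tried. Without ischemic section 1 none of the other 10 genes passed (edgeR), and without ischemic section 2 only 1 of them did. Cyp2a5 also lost its call with DESeq2 (adjusted p = 0.175), without a section block (0.148), without normal section 1 (0.295) and with 3 other ways of drawing zones.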

How the results depend on the processing

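Over whole sections, 19 to 23 members were lower and 9 to 13 higher under every alternative, and Cyp2j6, Cyp2u1, Cyp39a1, Cyp4v3 and Cyp4f17 were the genes that lost a call under any of them. By zone, leaving out 1 section at a time gave 5 to 12 genes higher in cortex, 3 to 7 in inner stripe, 1 to 5 in inner medulla and 2 to 4 in pelvis, and 6 to 16 lower in pelvis. In ischemic sections it gave 10 to 23 lower and 1 to 3 higher in outer stripe than in cortex, and the change of that difference was lower for 4 to 14 and higher for 0 to 7. Where 1 section was left alone in a condition, it was assumed to vary like the others. Without the filter, 8 were higher in inner stripe and 8 had a higher zone difference. Spots clear of zone boundaries gave 2 higher in inner medulla, and zones from the spot alone gave 2 higher in pelvis. DESeq2 gave 6 genes higher in the outer stripe of normal sections and 2 with a higher zone difference. With no section block these were 6 and 1, and 6 had a lower zone difference. Log2 values changed sign for genes not called: Cyp4v3 in outer stripe (-0.15 to 0.66 over the sections left out), and, for outer stripe minus cortex in normal sections, Cyp27a1 (-0.17 to 0.10, 0.0054 with clear spots, 0.044 with the spot alone) and Cyp2c23 (-0.15 to 0.087, 0.070 with clear spots). The cause was not tested.

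The replicate number as a block gave 22 members lower and 13 higher over whole sections and 8 higher in inner stripe. Samples shared only a number, with a correlation of 0.162 across genes between the deviations of the same-numbered sections. Counts limit Cyp2b10, Cyp4f15, Cyp4f14 and Cyp3a13, each with at most 122 UMIs in all.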
